A study of Mus musculus with 12 samples.

Results

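Semaphorins and their receptors, the plexins, were followed through the arrays by the gene name printed for each probe, and every gene probe named for a semaphorin of classes 3 to 7 or for a plexin of classes A to D was taken. This gave 29 of 19647 named genes and 54 of 41174 gene probes, 36 of them for 20 semaphorin genes and 18 for 9 plexin genes. The names did not depend on any measured value, but the family was chosen with earlier results of these data known. The RNA came from quadriceps muscle of 13-week-old male C57BL/6J mice and was hybridised with 1 mouse per one-colour Agilent array. The exercised group was 6 mice trained by treadmill running over 4 weeks and sampled 3 hours after the final run, and the sedentary group was 6 untrained mice. The comparison asks which transcripts differ in trained muscle, and the final run and the preceding weeks of running cannot be told apart. The titles number the mice within sets 1 and 2, whose meaning is not stated, and single mice are named here by those numbers.

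Semaphorins are secreted, membrane-spanning or lipid-anchored signals that share a sema domain, and plexins are the membrane receptors that bind them. Class 3 semaphorins are secreted and mostly act through a plexin held together with a neuropilin, whereas most other classes bind plexins directly. A plexin that has bound its ligand acts as a GTPase-activating protein on small Ras-family proteins and so alters the cytoskeleton and cell adhesion. The family is best known for steering axons, and it also acts on blood vessels, immune cells and, in muscle, the nerve terminals that contact the fibres.

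Levels are log2 of the processed signal minus the 75th percentile of the same array, so a level of 0 is that percentile and levels of different probes cannot be ranked against each other. Of the 54 probes, 34 exceeded background clearly on 6 or more of the 12 arrays and were tested, 28 of them on all 12 arrays. They stand for 25 of the 29 genes. The remaining 20 probes comprised 5 above background on 1 to 5 arrays and 15 on 0 arrays, and Sema3d, Sema4b, Sema4f and Sema4g had no tested probe. None of the 54 probes carried an outlier mark or was saturated on any array, and each had 1 spot. The arrays lay on 3 glass slides that each held both groups, and differences within slides are given beside the results.

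In exercised muscle 5 of the 34 tested probes were higher and 1 was lower, and 28 did not pass the test (limma, Benjamini-Hochberg adjusted p below 0.05 over 22919 probes). The 5 higher probes belong to Plxna2 (3 probes), Sema7a and Sema3f, and the lower one to Sema6a. Over all tested probes 414 were higher (1.81%), 345 were lower (1.51%), and 3.31% passed in either direction. Counts at an unadjusted p below 0.05 are given further on for some classes and lists. The share of all probes at that level is not given for this comparison, so those counts are not read as results. The median log2 difference, exercised minus sedentary, was 0.04 over the tested semaphorin and plexin probes and -0.02 over all probes, and 20 of the 34 lay above 0, against 44.3% of all probes. The exercised and sedentary values did not overlap for 6 of the 34 probes, which were those 6, and did not overlap for 2.89% of all probes. The differences that passed lay in 4 of the 25 genes, a gene being counted if any of its probes passed, and 3 of the 6 probes belong to Plxna2. With only the brightest probe of each gene, 3 of 25 passed, 2 higher and 1 lower. Of all probes chosen in that way 297 were higher and 304 lower, but their total, and so a share over all genes, is not given here. In RNA of whole muscle, fewer cells of a type and less RNA per cell cannot be told apart, here and in what follows.

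The 60-base probes of the genes that rose are the sequences on which the results rest, and the last 30 bases of each are shown 5′ to 3′ with positions on mm9 as the files give them. Capitals mark the letters AATAAA, the common polyadenylation signal. They occur in the last 30 bases of 1275 of 41174 gene probes (3.1%) and of 1 of the 54 semaphorin and plexin probes, that of Sema7a. The other Sema3f probe, which did not pass, is shown beside the one that did.
Plxna2 A_51_P110529, chr1:196638380-196638439, plus strand: tctcaaaaggaaagatgggatgagtgaagg
Plxna2 A_52_P431981, chr1:196640289-196640348, plus strand: tatgatgattcacaaccagccatgccaagg
Plxna2 A_51_P229602, chr1:196642958-196643017, plus strand: ttttgcaagccaaggacacaatttgtactg
Sema7a A_52_P410765, chr9:57810607-57810666, plus strand: atgtaacatattactAATAAAcaagctatt
Sema3f A_52_P498231, chr9:107584200-107584259, minus strand: gtattttttccctatttattggggacagaa
Sema3f A_51_P389814, chr9:107584788-107584847, minus strand: tgaactccaggaccagaaaaagccgaggaa
The 3 Plxna2 probes lie within 4638 bases of each other and do not overlap, so they read separate stretches of the gene. Whether each position is in an exon or a UTR was not analysed here.

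Among the ligands, the class 3 semaphorins had 9 tested probes of 14, for Sema3a, Sema3b, Sema3c, Sema3e, Sema3f and Sema3g. Of these 1 rose and 0 fell, 8 of 9 lay above 0, and the median log2 difference was 0.21. Sema3f encodes a secreted ligand that acts through neuropilin 2 and repels axons and vessel sprouts. Its probe A_52_P498231 had levels from -2.29 to -1.85 with a median of -2.01 in exercised mice, against -2.71 to -2.31 with a median of -2.49 in sedentary mice. The lowest exercised mouse was just above the highest sedentary one, so the groups did not overlap. The difference was 1.38-fold higher in exercised mice (95% interval 1.20 to 1.59, limma adjusted p = 0.0162, n = 6 and 6). The log2 differences within slides 1, 2 and 3 were 0.56, 0.66 and 0.43. The second Sema3f probe, A_51_P389814, had levels from -1.93 to -1.06 with a median of -1.64 in exercised mice and from -2.14 to -1.78 with a median of -1.996 in sedentary mice. These groups overlapped, and its log2 difference of 0.35 (0.06 to 0.64) did not pass (adjusted p = 0.200). The call of Sema3f was lost on the arrays whose set and animal numbers occur in both groups, with and without a block on that number (limma adjusted p = 0.222 and 0.113). It was also lost with median scaling (adjusted p = 0.0561), with no background filter (0.0526) and with normexp, a model-based background correction that adds an offset of 50 units to every signal. There the log2 difference was 0.09, or 0.14 with its local background limited. The processed signal of this probe was 39.9 to 62.1 units in exercised and 26.7 to 41.2 units in sedentary mice, and an offset of that size by itself brings the groups closer on the log2 scale.

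Sema3g, a secreted ligand of neuropilin 2, had levels from 1.29 to 1.69 with a median of 1.43 in exercised mice, against 1.05 to 1.29 with a median of 1.15 in sedentary mice. The lowest exercised and the highest sedentary mouse were almost level. Its log2 difference of 0.29 (0.12 to 0.47) had an adjusted p of 0.0749 and did not pass. The other class 3 probes, for Sema3a, Sema3b, Sema3c and Sema3e, did not pass either. One more Sema3e probe, A_51_P483438, was well above background on 2 exercised and 0 sedentary arrays and so was not tested. Because most of its values were not above background, no fold difference is given for this probe. Its mean levels were -4.28 in exercised and -5.52 in sedentary mice, the groups did not overlap, and without the background filter its adjusted p was 0.0506. The tested Sema3e probe, A_52_P439407, did not pass, so the probes of this gene do not give a call.

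Class 4 semaphorins are membrane-spanning ligands of plexin B receptors and of several immune receptors. They had 4 tested probes of 8, for Sema4a, Sema4c and Sema4d, of which 0 passed in limma (1 at an unadjusted p below 0.05) and whose log2 differences ran from -0.09 to 0.41. The highest was that of Sema4c, a plexin B2 ligand expressed in developing and regenerating muscle. Its probe A_51_P170651 had levels from -0.72 to -0.08 with a median of -0.16 in exercised mice and from -0.89 to -0.45 with a median of -0.65 in sedentary mice. A single exercised mouse, mouse 1 of set 1, made the groups overlap. With all mice the probe did not pass (limma adjusted p = 0.0882, log2 difference 0.41, 0.15 to 0.67). Of the 12 fits that left out 1 array it passed in 1, that without this mouse (adjusted p = 0.0170). The second Sema4c probe was not past the threshold. Class 5 semaphorins, whose thrombospondin repeats set them apart, had 2 tested probes of 5, for Sema5a and Sema5b, with log2 differences from -0.26 to 0.05 and 0 past the threshold in limma (0 at an unadjusted p below 0.05).

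Class 6 semaphorins are membrane-spanning ligands of class A plexins. They had 5 tested probes of 8, for Sema6a, Sema6b, Sema6c and Sema6d, of which 0 rose and 1 fell, with 4 of 5 below 0 and a median log2 difference of -0.30. Sema6a binds plexins A2 and A4. Its probe A_51_P352245 (chr18:47405055-47405114 on mm9, minus strand) had levels from -5.21 to -4.01 with a median of -4.23 in exercised mice, against -3.28 to -2.85 with a median of -3.08 in sedentary mice. All exercised mice were below all sedentary mice, and mouse 1 of set 2 lay well under the other exercised mice. The probe was 2.45-fold lower in exercised mice (1.89 to 3.18, limma adjusted p = 0.00153, n = 6 and 6), and without that mouse the adjusted p was 0.000173. The log2 differences within slides 1, 2 and 3 were -1.25, -1.38 and -1.21. The probe is dim: its processed signal was 5.67 to 13.3 units in exercised mice, above background on 5 of 6 arrays, against 17.3 to 33.0 units on 6 of 6 arrays in sedentary mice. Under the limited normexp correction the log2 difference was -0.36, still past the threshold (adjusted p = 0.00344), and under the plain one it was -0.24 and did not pass. The offset of 50 units is larger than any signal of this probe and shrinks its log2 difference by construction, so those values do not measure the effect of background correction alone. The other Sema6a probes were above background on 0 exercised arrays, and on 1 and 0 sedentary arrays, and give no second reading of this gene.

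Sema6c, a class 6 ligand found in adult skeletal muscle, had log2 differences of -0.30 (-0.50 to -0.11) and -0.31 (-0.64 to 0.01) from its 2 probes. Probe A_51_P324251 had levels from -1.70 to -1.46 with a median of -1.52 in exercised mice and from -1.51 to -1.02 with a median of -1.29 in sedentary mice. Probe A_52_P370692 had levels from 0.59 to 1.46 with a median of 1.09 in exercised mice and from 0.99 to 1.75 with a median of 1.35 in sedentary mice. The groups overlapped for both probes, and the adjusted p values of 0.0985 and 0.339 did not pass.

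Sema7a is the only class 7 semaphorin. It is held at the membrane by a lipid anchor, and it signals through plexin C1 and integrins of the beta 1 family. Its only probe had levels from 1.83 to 2.32 with a median of 2.18 in exercised mice and from 1.00 to 1.72 with a median of 1.35 in sedentary mice. Every exercised mouse was above every sedentary mouse. The level was 1.64-fold higher in exercised mice (1.37 to 1.98, limma adjusted p = 0.00715, n = 6 and 6), and a block on slide left it past the threshold (adjusted p = 0.0378). The log2 difference was 0.93 on slide 1 and 0.87 on slide 2, and it was smaller on slide 3, at 0.32. The call of Sema7a was lost on the arrays whose set and animal numbers occur in both groups, with and without a block on that number (limma adjusted p = 0.125 and 0.12). The tested probe of Plxnc1 itself did not pass.

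**Figure D1:**
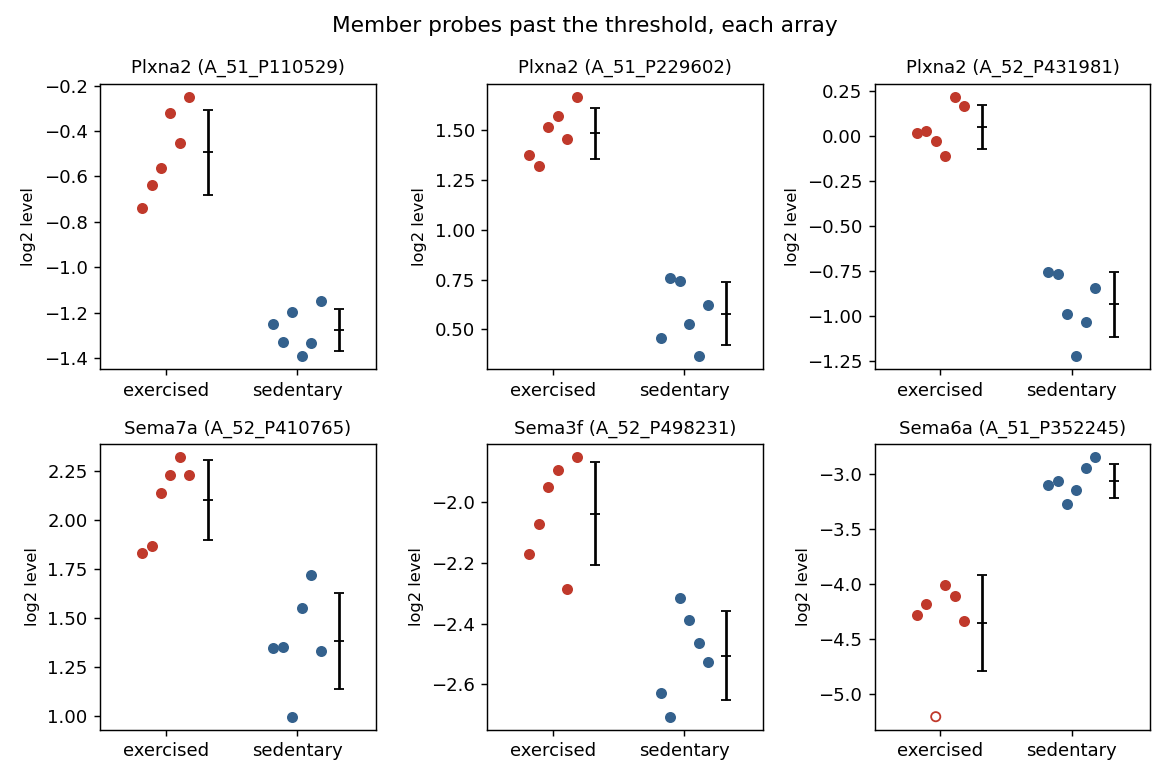
Levels of the 6 probes past the threshold on each array, as log2 of processed signal relative to the array's 75th percentile, with exercised mice in red on the left and sedentary mice in blue on the right of each panel (n = 6 each). Bars give the mean and SD, and the open circle is a value not well above background. The exercised and sedentary points do not overlap in any panel, and Sema6a is the panel in which exercised mice are lower.

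Among the receptors, class A plexins had 8 tested probes of 10, of which 3 rose and 0 fell, and all 3 belong to Plxna2. Plexin A2 is a receptor for Sema6a and, with neuropilins, for class 3 semaphorins. Probe A_52_P431981 had levels from -0.11 to 0.22 with a median of 0.02 in exercised mice, against -1.22 to -0.75 with a median of -0.92 in sedentary mice. Probe A_51_P229602 had levels from 1.32 to 1.67 with a median of 1.49 in exercised mice and from 0.37 to 0.76 with a median of 0.57 in sedentary mice. Probe A_51_P110529 had levels from -0.74 to -0.25 with a median of -0.51 in exercised mice and from -1.39 to -1.15 with a median of -1.29 in sedentary mice. On each probe all 6 exercised mice were above all 6 sedentary mice, with a gap wider than the SD of either group. The rises were 1.98-fold (1.72 to 2.27, adjusted p = 0.000123), 1.88-fold (1.65 to 2.14, adjusted p = 0.000154) and 1.72-fold (1.504 to 1.964, adjusted p = 0.000446) in limma. A block on slide gave adjusted p values of 0.00163, 0.000255 and 0.00163.

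Within slides the Plxna2 log2 differences were 1.18, 0.79 and 0.91 on slides 1, 2 and 3 for probe A_52_P431981, 1.04, 0.76 and 0.94 for probe A_51_P229602, and 1.00, 0.88 and 0.61 for probe A_51_P110529. All 9 values were positive, and so were those of Sema7a and Sema3f. The 3 probes read the same RNA samples and are not replicates of the training effect. Plxna2 was past the threshold on all 3 probes in each of the 12 fits that left out 1 array. On the arrays whose set and animal numbers occur in both groups, a block on that number removed all 3 calls. The limma adjusted p values, in the order above, were 0.0641, 0.0755 and 0.0873 with that block and 0.00618, 0.0163 and 0.0347 without it. Under the plain normexp correction 0 of the 6 probes passed in limma and 142 of all probes had an unadjusted p below 0.05; with the local background limited, an alternative chosen after seeing the data, 4 of the 5 higher probes and Sema6a passed, with Plxna2 log2 differences of 0.68, 0.80 and 0.47.

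**Figure D2:**
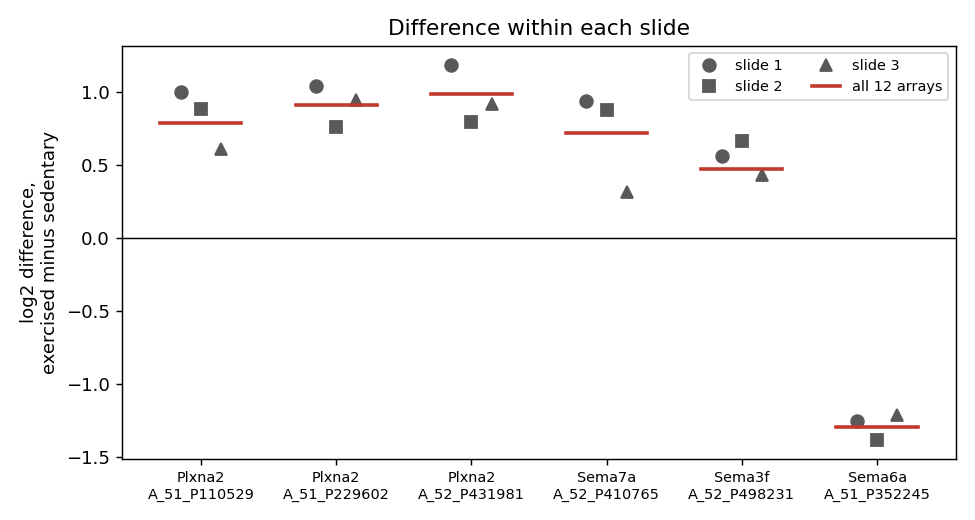
Log2 difference, exercised minus sedentary, of the 6 probes past the threshold within each of the 3 slides (grey symbols) and over all 12 arrays (red lines). The 5 higher probes were above 0 and the Sema6a probe was below 0 on each slide, and Sema7a had its smallest value, 0.32, on slide 3.

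The other class A plexins, Plxna1, Plxna3 and Plxna4, had 5 tested probes, none past the threshold. Plxna1 encodes a receptor that pairs with neuropilin 1 for Sema3a. Its probe A_52_P480141 had levels from -0.60 to -0.25 with a median of -0.34 in exercised mice and from -0.35 to 0.05 with a median of -0.04 in sedentary mice. The overlap came from 1 sedentary mouse, mouse 6 of set 1, and the log2 difference of -0.29 (-0.47 to -0.11, adjusted p = 0.0863) was past the threshold without it (adjusted p = 0.0351). The other Plxna1 probe had a value on the other side of 0, so the gene's probes disagree. Plxna4, which like Plxna2 encodes a receptor of Sema6a, had levels from -1.50 to -1.17 with a median of -1.39 on probe A_52_P661 in exercised mice and from -1.71 to -1.41 with a median of -1.49 in sedentary mice. Its log2 difference of 0.17 (-0.0017 to 0.34) did not pass (adjusted p = 0.326), and its second tested probe lay below 0.

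Class B plexins, receptors of class 4 semaphorins, had 3 tested probes of 5, for Plxnb1, Plxnb2 and Plxnb3. None passed in limma (1 at an unadjusted p below 0.05), and the log2 differences ran from -0.23 to 0.31. Plxnb3, a receptor of Sema5a, had levels from -1.88 to -1.40 with a median of -1.65 in exercised mice and from -2.17 to -1.78 with a median of -1.94 in sedentary mice. The groups overlapped, and its log2 difference of 0.31 (0.10 to 0.51) had an adjusted p of 0.120. Plxnd1, the only class D plexin and the receptor through which Sema3e acts on endothelial cells, had levels from 0.60 to 1.13 with a median of 0.96 in exercised mice and from 1.02 to 1.37 with a median of 1.20 in sedentary mice. Its log2 difference of -0.27 (-0.49 to -0.05) did not pass (adjusted p = 0.197).

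**Figure D3:**
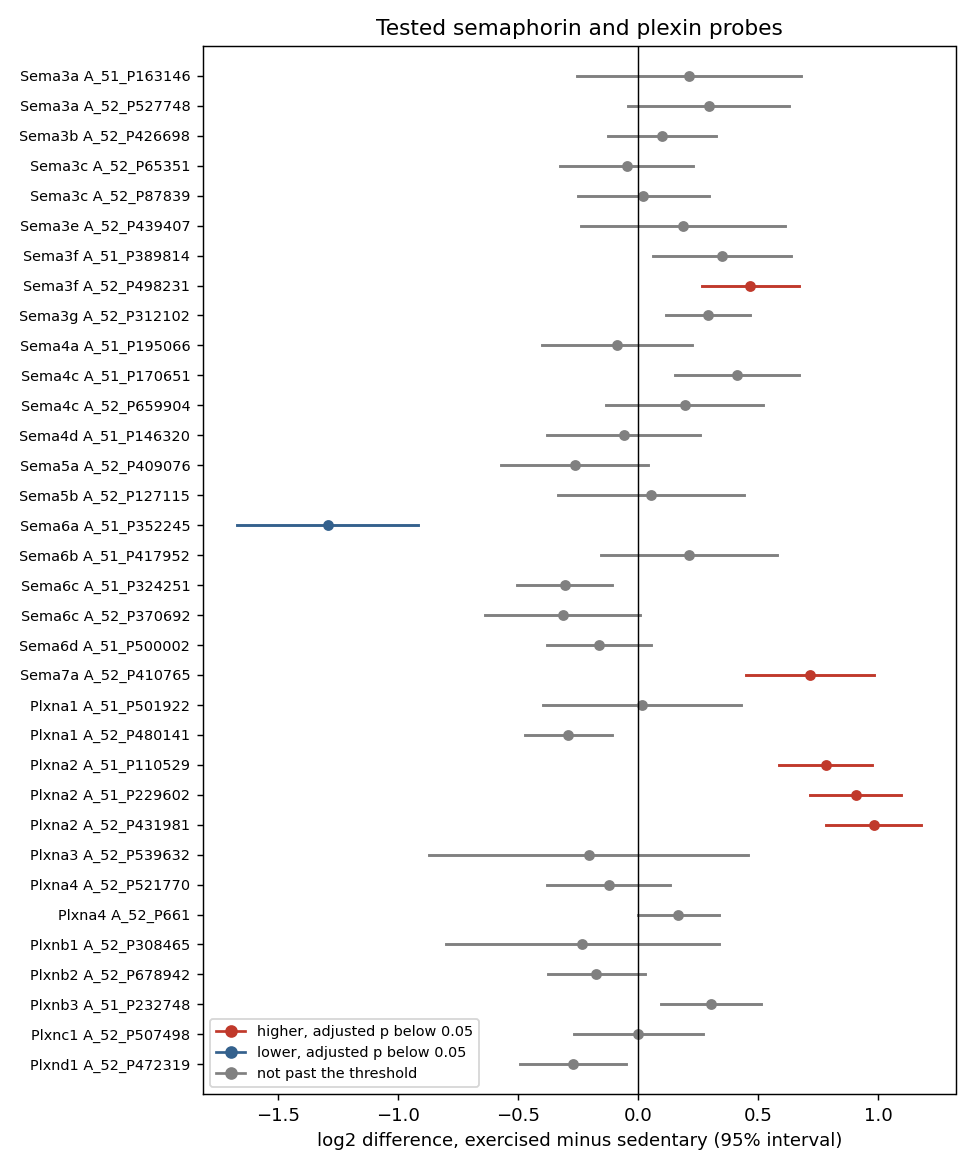
Log2 difference, exercised minus sedentary, with its 95% interval for the 34 tested semaphorin and plexin probes, ordered by class. Red marks the 5 higher probes, blue the lower one and grey the 28 that did not pass, and the 3 Plxna2 probes lie together between 0.78 and 0.98.

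The 19 tested probes not described one by one had log2 differences from -0.26 to 0.29 and adjusted p values of 0.397 or more. The 95% intervals of the tested probes reached a median of 0.27 to either side on the log2 scale, from 0.17 to 0.66, so that small changes could not be seen for most of them. A probe that did not pass is not thereby shown to be equal in both groups. Of the 8 genes with at least 2 tested probes, the probes had the same sign in 5 and opposite signs in Plxna1, Plxna4 and Sema3c. The difference of the training effect between title sets 1 and 2 passed for 0 of the 34 probes and 0 of all probes in limma, with 3 of the 34 and 8.43% of all probes at an unadjusted p below 0.05.

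Co-receptors and other partners of the family at the membrane were read from a list of 16 genes, of which 13 were tested, each represented by its brightest probe. Of these 0 rose and 1 fell, with a median log2 difference of -0.10. Kdr, the main VEGF receptor of endothelial cells, which also joins plexin complexes, had mean levels of 1.34 ± 0.19 in exercised and 2.11 ± 0.29 in sedentary mice (SD, n = 6 each) and was 1.71-fold lower in exercised mice (limma adjusted p = 0.00706). Blocking on slide left it past the threshold (adjusted p = 0.0188). Kdr lost the call with plain normexp and with a block on the set and animal number shared by both groups. The neuropilins, named after their values were seen, are the ligand-binding partners of class A plexins for class 3 semaphorins. Nrp1 had mean levels of -0.74 ± 0.11 in exercised and -0.51 ± 0.19 in sedentary mice, with a log2 difference of -0.23 and an adjusted p of 0.245. Nrp2 had 1.76 ± 0.15 in exercised and 2.01 ± 0.17 in sedentary mice, with -0.24 and 0.210. Neither neuropilin passed.

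Intracellular partners of plexins, which include the MICAL oxidoreductases, the collapsin response mediators, guanine nucleotide exchange factors and small GTPases, numbered 38, of which 35 were tested and 0 passed in limma (5 at an unadjusted p below 0.05). Their median log2 difference was 0.01. The smallest p values belonged to Micall1, an endosome adaptor related to the MICALs, with a log2 difference of 0.27 and an adjusted p of 0.0901, and to Rap1b, a small GTPase on which plexins act, with 0.24 and 0.125. The other tested Rap1b probe, which is dimmer, had a log2 difference of 0.51. Of 40 other axon guidance ligands and receptors (Slits, Robos, netrins, ephrins and their receptors) 26 were tested, 0 rose and 1 fell, and the median log2 difference was -0.0006. The lower gene was Efnb2, an ephrin of arterial endothelium, with mean levels of -1.23 ± 0.31 in exercised and -0.62 ± 0.19 in sedentary mice and a log2 difference of -0.61 (adjusted p = 0.0314). It lost the call in the fit blocked on slide (adjusted p = 0.0897), and it passed in 6 of the 12 fits that left out 1 array.

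**Figure D4:**
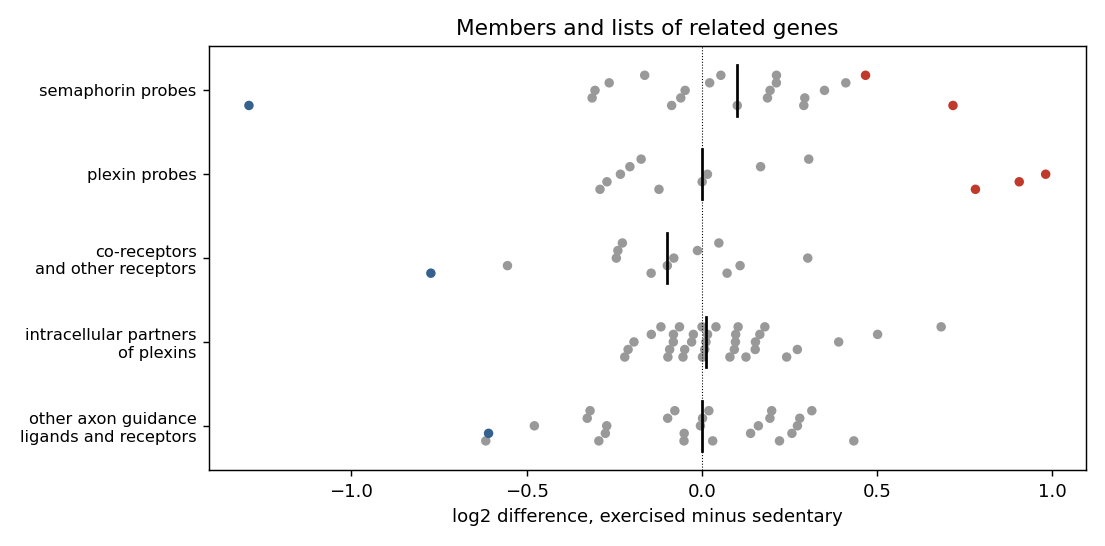
Log2 difference, exercised minus sedentary, of the tested semaphorin and plexin probes and of the genes in each list of related genes, 1 point per probe or gene, with the median as a black bar. Red and blue mark points past the threshold, higher and lower. The red points all belong to semaphorins or plexins, which are shown by every tested probe, whereas list genes are shown by their brightest probe only.

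Markers of the cells in the tissue were read beside these results, each gene by its brightest probe only. The muscle fibre markers were above background for 8 of 8 genes, and 0 passed in limma (1 at an unadjusted p below 0.05). Of 10 endothelial markers 0 rose and 3 fell, Kdr, Cldn5 (log2 difference -0.87, adjusted p = 0.0280) and Egfl7 (-0.57, adjusted p = 0.0282), while Pecam1 had -0.03. In the fit blocked on slide Cldn5 and Egfl7 lost their calls (adjusted p = 0.0721 and 0.0769). Where an endothelial marker had a second tested probe, the log2 differences of the probe used and of the second were -0.26 and -0.34 for Cdh5, -0.27 and 0.80 for Tek, and -0.04 and 0.05 for Vwf. The endothelial score, the mean deviation of the list from its 12-array means, ran from -0.30 to -0.04 in exercised and from -0.06 to 0.31 in sedentary mice (two-sided exact permutation p = 0.00433, 0.052 adjusted over 12 measures). The score did not pass after adjustment. Plxnd1, Nrp1 and Nrp2 also had differences below 0, which did not pass. Other members and list genes lay above 0 without passing, with log2 differences of 0.29 for Sema3g, 0.22 for Robo4 and 0.19 for Ephb4. Sema6a and Efnb2 had differences below 0 that passed, but Efnb2 lost its call in the fit blocked on slide. The part of endothelial cells in these values was not tested. Of 9 smooth muscle cell and pericyte markers 2 rose and 1 fell. Cnn1, which encodes smooth muscle calponin, was 1.88-fold higher in exercised mice (adjusted p = 0.00571, and 0.0259 in the fit blocked on slide). Myh11, the smooth muscle myosin gene, was 1.37-fold higher (adjusted p = 0.0442), and lost its call in the fit blocked on slide (adjusted p = 0.141). Kcnj8, a potassium channel gene of pericytes, was 1.54-fold lower (adjusted p = 0.0144). The score of this list ran from -0.12 to 0.10 in exercised and from -0.23 to 0.12 in sedentary mice (exact permutation p = 0.413), and its part in the values of Plxna2, Sema7a and Sema3f was not tested.

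The 7 tested Schwann cell markers and the 7 tendon cell markers all had log2 differences above 0, but limma called 0 of either list. An unadjusted p below 0.05 was found for 5 Schwann cell and 6 tendon cell markers, with no share of all probes to set beside these counts. The Schwann cell score ran from -0.16 to 0.36 in exercised and from -0.27 to 0.04 in sedentary mice, and the tendon cell score from -0.33 to 0.96 in exercised and from -1.47 to 0.06 in sedentary mice. Their exact permutation p values of 0.0130 and 0.0195 did not pass after adjustment (0.078 each), and their part in the 5 higher probes was not tested. Of the tested macrophage (9), lymphocyte (4), fibroblast (7), adipocyte (6) and satellite cell (3) markers 0 passed in limma, with 1 fibroblast marker and 0 of the others at an unadjusted p below 0.05.

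The promoters of Plxna2 and Sema7a, which rose together, are shown as the 250 bases before the gene start, 5′ to 3′, from RefSeq on GRCm38.p6, a build other than that of the probe positions. Capitals mark the GC box GGGCGG.
Plxna2, chr1:194619579-194619828, plus strand: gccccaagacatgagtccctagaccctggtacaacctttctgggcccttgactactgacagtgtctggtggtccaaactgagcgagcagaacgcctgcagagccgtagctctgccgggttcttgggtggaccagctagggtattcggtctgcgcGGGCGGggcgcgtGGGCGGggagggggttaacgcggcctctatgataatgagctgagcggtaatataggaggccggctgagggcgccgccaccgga
Sema7a, chr9:57939862-57940111, plus strand: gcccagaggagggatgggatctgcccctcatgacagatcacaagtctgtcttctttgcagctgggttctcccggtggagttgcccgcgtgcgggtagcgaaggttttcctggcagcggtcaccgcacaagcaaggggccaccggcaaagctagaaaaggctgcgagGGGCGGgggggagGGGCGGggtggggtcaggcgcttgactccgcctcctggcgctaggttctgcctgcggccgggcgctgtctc
Each holds 2 GC boxes, from 96 to 91 and 83 to 78 bases before the start in Plxna2 and from 84 to 79 and 71 to 66 in Sema7a. The GC box is found in 32.7% of 32851 promoters of that length and in 25 of 35 promoter entries of semaphorin and plexin genes. On both strands the windows were also searched for the CRE half-site TGACG (in 17.8% of all promoters), the AP-1 site TGANTCA (6.75%), the glucocorticoid receptor half-site AGAACA (16.1%), the NR4A site AAAGGTCA (1.34%), the FOXO site GTAAACA (3.17%) and the E-box CACGTG (6.02%), and these letters are not in either window.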

How the data were processed

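Per the file headers, the authors extracted spot intensity on a linear scale with Agilent Feature Extraction 10.5.1.1 on 12 of 12 arrays; the submitters' processing notes name version 9.1. The authors' deposited processed signal has the background subtracted and spatial trends removed array by array, with no scaling between arrays. Control spots and those marked as outliers were dropped, and repeat spots were averaged. Log2 of the signal minus each array's 75th percentile was fitted for 22919 of 41174 gene probes well above background on at least 6 arrays, with limma 3.58.1 (R 4.3.3), no block, Benjamini-Hochberg adjustment over all of them and a threshold of 0.05. Each array is a different mouse, and the number of arrays limits the precision. The exercised mice were spread over the 3 slides as 1, 3 and 2 arrays and the sedentary mice as 3, 1 and 2, so values within slides and from a fit blocked on slide are given. Exercised arrays had 23192 ± 957 probes well above background, against 23045 ± 1187 on sedentary arrays, with 75th percentiles of 206 ± 20.1 and 189.5 ± 24.9 units (SD, n = 6 each; exact permutation p = 0.805 and 0.229). Marker scores were compared by a two-sided exact permutation test over 924 assignments, whose smallest p is 0.00216.

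The members, the lists of related genes and the marker lists were chosen with earlier results of these data known. Values are given singly for the 15 tested members with the smallest p, which include all past the threshold, and for the called genes of each related list or, with none called, the 2 with the smallest p. Of the 54 member probes, 49 were matched to a current gene symbol by accession, and 0 of these names differed. The deposited table of values was an alternative source: where a probe had 1 spot, 100% of values matched the processed signal to within 0.1%. Promoters come from the RefSeq table, which held 24 of the 29 genes and 2 of the 4 that changed. Other alternatives were quantile or median scaling, normexp (offset 50 units), other filters, 1 probe per gene, other variance models, array weights, the title set and the shared replicate number as blocks, and each array left out. Of the marker genes, Cdh19 and Myf5 were above background on 0 arrays.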

Additional observations from a re-analysis of the deposited data

Results flagged for a closer look

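Of 54 sets of 6 values examined, 7 held a sample farther from the other 5 than Dixon's 95% limit, and chance gives about 1 in 20. On the Sema6a probe exercised mouse 1 of set 2 had a log2 level of -5.21, against -4.34 to -4.01 in the other exercised mice, and the probe was past the threshold without it. On the Plxna1 probe A_52_P480141 sedentary mouse 6 of set 1 had -0.35, against -0.09 to 0.05 in the other sedentary mice, and the probe was past the threshold only in the fit without it among the fits that left out 1 array. The macrophage score was 0.36 in exercised mouse 4 of set 2, against -0.17 to 0.01 in the others. The fibroblast score was -0.32 in exercised mouse 1 of set 2, against 0.06 to 0.28. The tendon cell score was -1.47 in sedentary mouse 2 of set 2, against -0.43 to 0.06, and the satellite cell score was 1.03 in sedentary mouse 1 of set 1, against -0.23 to 0.21. The 75th percentile of the processed signal was 237 units in sedentary mouse 5 of set 2, against 167 to 191 in the other sedentary mice.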

How the results depend on the processing

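Over the 21 probes described singly, 15 of them members, and their alternatives, 602 of 666 values kept their direction and side of the threshold, 53 lost a call, 7 gained one and 4 changed sign. The sign changes were Plxnd1 within slide 1 (0.0161), Plxna4 A_52_P661 with normexp (-0.0011) and Sema6c A_52_P370692 with normexp (0.0139) and within slide 3 (0.19), none of which was past the threshold. The other 19 tested members were past it in 0 of 599 alternative values and had the other sign in 79.

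Against 5 higher and 1 lower members, and 414 higher and 345 lower probes in all, normexp with an offset of 50 units gave 0 and 0 members and 0 and 0 probes. On 4 arrays some spots had a local background over 1000 units, whereas the 99th percentile was at most 29, and with the background limited to that percentile it gave 4 and 1 members and 326 and 259 probes. With 1 probe per gene 2 members were higher. With probes above background on all arrays 0 members were lower, since Sema6a was then not tested. With no filter 227 probes were higher and 167 lower, with slide as a block 267 and 176, and with median scaling 218 were lower. At an adjusted p below 0.10, 3 members and 677 probes were lower. Within slides 1, 2 and 3, which hold 4 arrays each with a lone array of 1 group on slides 1 and 2 that is assumed to vary like the others, 0, 0 and 0 members were higher and 0 lower, and 0, 1 and 0 probes were higher and 0, 9 and 0 lower. Leaving out 1 array gave 5 to 6 higher and 1 to 2 lower members, and 294 to 389 higher and 226 to 334 lower probes.

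The replicate block used the 4 set and animal numbers found in both groups, whose deviations correlated at 0.14, -0.177, 0.089 and 0.241. Mice with different numbers were not compared in this way, so these values cannot decide whether such mice share more than a number. With it 0 members were higher and 1 was lower, and 27 probes were higher and 7 lower; the same 8 arrays without the block gave 3 higher and 1 lower members and 102 and 54 probes.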
